A study of Mus musculus with 9 samples.

Results

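Mist1+ cells of the mouse gastric corpus, taken after ablation of Lgr5+ cells, were compared with Mist1+ corpus cells from mice with no ablation named in the labels. The members are 6 of the 9 arrays of the series, chosen by their titles: 3 arrays titled Isthmus and 3 titled Chief, and the 3 arrays of parietal cells are not part of the comparison. Both groups held Mist1+ Tomato+ cells of the stomach corpus of C57BL/6 mice, Tomato being a red fluorescent reporter, and the isthmus group differs in the labels by its treatment, Lgr5+ cell ablation, alone. How the cells were ablated, how long after ablation they were taken, which Cre or reporter alleles they carried, and the age and number of mice are not stated in the labels. Nothing in the labels says that the 3 arrays of a group came from separate animals, so the p-values rest on the scatter among these arrays, part or all of which may be technical.

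The corpus glands are lined by surface pit cells, mucous neck cells, acid-secreting parietal cells, endocrine cells and, at the gland base, chief cells, which store pepsinogen and other secreted proteins in zymogen granules. Mist1, encoded by Bhlha15, is a basic helix-loop-helix transcription factor that builds the secretory apparatus of such cells, and in the mouse corpus it also marks some cells of the isthmus, the zone of dividing cells higher in the gland. Lgr5, a receptor for R-spondins that strengthens Wnt signals, marks cells at the gland base.

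The values are Affymetrix MAS5 signals on the log2 scale, so a difference of 1 is a doubling or halving. One probe set stands for each gene, the one with the highest mean over the 6 arrays. Of 18193 genes with a probe set, 10368 had a signal above the median of the array on at least 3 of the 6 arrays and were tested with limma. A gene was called at a Benjamini-Hochberg adjusted p under 0.05. The 6 arrays had median signals of 60.5 to 104, and Pearson's r over the tested genes was 0.799 to 0.827 between chief arrays, 0.839 to 0.846 between isthmus arrays and 0.729 to 0.818 across the groups. Chief replicate 3 stood apart in connective tissue genes and chief replicate 1 in cell cycle genes, as described with those genes.

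The label genes were read first. Lgr5 had log2 signals of 8.05, 7.54 and 9.36 on the chief arrays and 2.93, 4.83 and 5.97 on the isthmus arrays. All isthmus values lay below all chief values and below the median of their own array. The difference did not pass the test (adjusted p = 0.116, and 0.0725 to 0.273 over 18 alternatives). Bhlha15 was at 10.75, 10.05 and 9.20 in chief and 5.03, 1.34 and 7.36 in isthmus samples. The labels of both groups name its product, Mist1, and the Tomato reporter, whose allele is not stated. The groups again did not overlap, and the limma test was missed (adjusted p = 0.0718), although it was passed under 4 of 18 alternatives, with a pseudocount of 16 (0.0262) or 64 (0.0149), with the mean of all probe sets (0.0312) and without isthmus replicate 3 (0.0168). Mki67, the Ki-67 antigen of dividing cells, was at 12.22, 12.37 and 12.98 in chief and 12.67, 12.76 and 13.08 in isthmus samples (adjusted p = 0.495). All 6 values lay far above the array medians.

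Far more genes were called lower than higher. In all, 93 genes were called, 0.897% of those tested: 20 were higher in the isthmus samples (0.193%) and 73 were lower (0.704%). All 93 had groups that did not overlap, and 74 differed at least 2-fold. Of the 73 lower calls 12 were on the lists of chief cell products and of the translocon, ER folding and ER to Golgi steps. Those lists held 16, 28, 38 and 38 of the 10368 tested genes, with some genes shared. They were written with earlier results of these data known. The higher calls included interferon response genes and a spindle gene. Over all tested genes the median difference was 0.04 and the quartiles were -0.43 and 0.50. The arrays of the isthmus group all lay above those of the chief group for 1153 genes (11.1%) and all below for 1071 (10.3%). By unadjusted p under 0.05 the split was even, with 830 higher and 828 lower. By value 52.9% of the tested genes were higher. Counts of list members given below are to be read against these shares. The tilt of the calls also depends on scaling. After each array was centred on its median, which shifts the median of all genes by 0.38, limma called 110 genes higher and 42 lower, among them 20 of the 20 and 40 of the 73. The median of all tested genes was then 0.42, and 0.09 after quantile normalization. List medians given below for these scalings are to be read against those values.

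**Figure D1:**
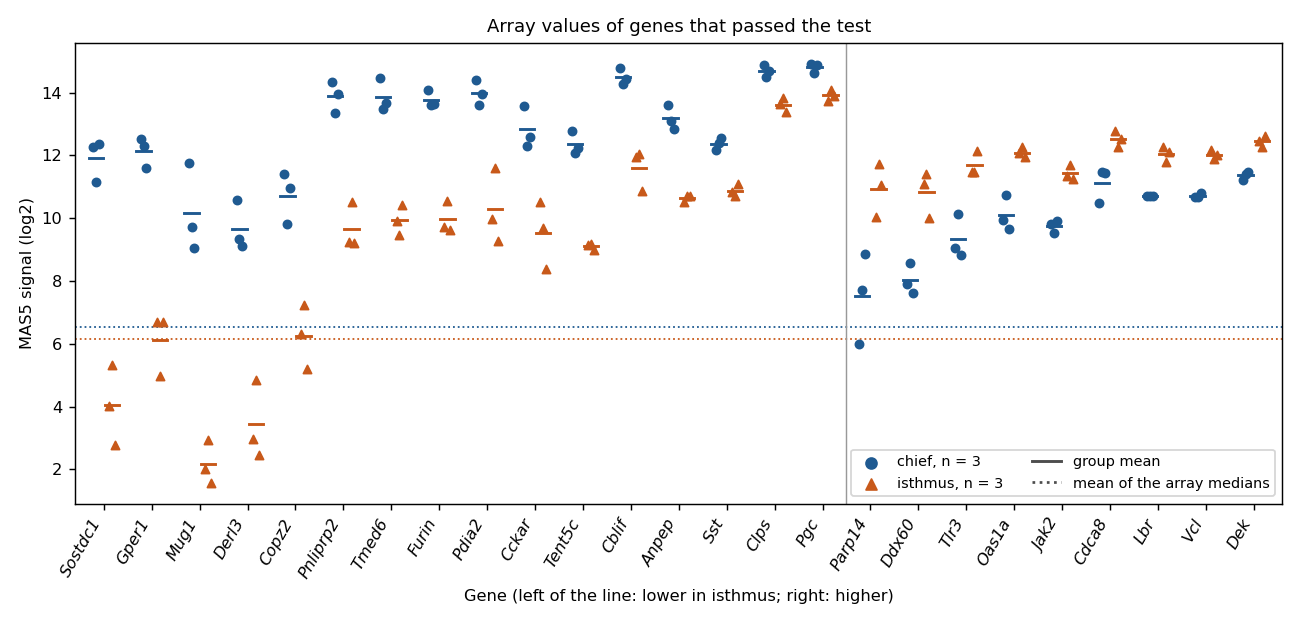
Log2 MAS5 signals of 25 called genes, with circles for the 3 chief arrays, triangles for the 3 isthmus arrays, bars for group means and dotted lines for the mean of the array medians in each group. The groups do not overlap for any of these genes, and Sostdc1, Mug1 and Derl3 lie below the dotted lines on all isthmus arrays.

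Products of chief cells made up the group with the most calls. Of 18 listed genes 16 were tested, 9 fell, 0 rose and 7 did not pass, with a median difference of -3.07 against 0.04 over all genes, and 14 lower and 0 higher by unadjusted p under 0.05. The list was written with earlier results of these data known and is not independent evidence of its direction.

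Among the secreted enzymes, Pnliprp2, a lipase related to pancreatic lipase, was at 14.35, 13.35 and 13.95 on the chief arrays and 9.23, 10.52 and 9.20 on the isthmus arrays. It fell 18.8-fold (log2 difference -4.23 ± 0.37 SE, adjusted p = 0.000334), and it was not called with all 9 arrays in one fit (0.0573). Cblif, the gastric intrinsic factor that binds vitamin B12, was at 14.79, 14.28 and 14.42 in chief and 11.94, 12.04 and 10.85 in isthmus samples, 7.40-fold lower (adjusted p = 0.000354). Both were still far above the array median in the isthmus samples. Pgc, the zymogen pepsinogen C, at 14.92, 14.63 and 14.88 against 13.73, 14.09 and 13.90, and Clps, the lipase cofactor colipase, at 14.88, 14.50 and 14.69 against 13.65, 13.82 and 13.37, fell much less, by 0.90 and 1.08 on the log2 scale (adjusted p = 0.00316 and 0.00295). These calls ended after quantile normalization (adjusted p = 0.167 and 0.146) and after centring (0.0636 and 0.0653), and both genes are among the brightest on the arrays, a class described with the scaling of these data. Chia1, an acidic chitinase, was at 15.03, 14.53 and 14.78 in chief samples and at 12.85, 12.37 and 5.11 in isthmus samples, and its spread left it uncalled (adjusted p = 0.162).

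Called members of this list also included the receptors Gper1 and Cckar, of which Gper1 was among the largest falls. Gper1, a G protein-coupled membrane receptor for estrogen, was at 12.53, 12.30 and 11.60 in chief samples and 6.70, 4.97 and 6.70 in the isthmus samples. It fell at least 48.6-fold (log2 difference -6.02 ± 0.56 SE, adjusted p = 0.000354), where "at least" means that isthmus arrays below their own median were set to that median. Its other bright probe set differed by -5.29. Cckar, the receptor for cholecystokinin, was at 13.58, 12.31 and 12.58 against 10.52, 9.68 and 8.38, a 9.83-fold fall (adjusted p = 0.0111) that was not called without chief replicate 1 (0.0799). The other called members of the list act in making secreted protein: Tmed6, a cargo receptor of early secretory vesicles, Tent5c, a poly(A) polymerase that stabilizes mRNAs of secreted proteins, and Derl3, all described next.

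Genes of the secretory pathway were then taken in the order of protein traffic. In the translocon and signal peptidase group, which feeds new chains into the endoplasmic reticulum (ER), 28 of 30 listed genes were tested and limma called 0. By unadjusted p under 0.05, 14 were lower and 0 higher, and the median was -0.47. It was -0.10 after centring, against 0.42 over all tested genes, with 9 then higher by value. After quantile normalization it was -0.39, against 0.09. Sec61a1, the channel subunit, was at 14.25, 13.80 and 14.04 in chief and 13.32, 13.51 and 13.73 in isthmus samples (-0.51, adjusted p = 0.109).

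All 38 listed genes of ER folding and quality control were tested. Among them 2 fell, 36 did not pass and 0 rose, with a median of -0.65. By value 36 of the 38 were lower, and 23 had all isthmus arrays below all chief arrays, against 10.3% of all genes. After centring of the arrays the median was -0.28, against 0.42 over all tested genes, and 11 were higher by value. After quantile normalization it was -0.68, against 0.09. Pdia2, a protein disulfide isomerase of secretory cells, was at 14.39, 13.60 and 13.95 in chief and 9.98, 11.60 and 9.26 in isthmus samples, 13-fold lower (adjusted p = 0.00388). Derl3, which helps to pass misfolded proteins out of the ER for degradation, was at 10.57, 9.33 and 9.10 against 2.97, 4.85 and 2.47, at least 11.4-fold lower (adjusted p = 0.0135). Its call ended without chief replicate 1 or 2 (adjusted p of up to 0.129), while Pdia2 kept its call without any 1 of the 6 arrays (adjusted p of up to 0.0448). Broadly expressed chaperones moved far less. Hspa5, the ER chaperone BiP, was at 14.03, 13.35 and 13.73 against 12.65, 13.16 and 13.08 (-0.74, adjusted p = 0.0924), and Canx, a lectin chaperone, differed by -0.08 (adjusted p = 0.881). Ero1b, an oxidase that recharges disulfide isomerases, differed by -2.41 (adjusted p = 0.0516). Xbp1, the transcription factor that induces many of these genes, was at 13.39, 12.87 and 12.89 in chief samples and 12.21, 12.25 and 11.46 in the isthmus samples (-1.08, adjusted p = 0.0636).

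The promoter of Derl3 is shown because it was the 1 called gene that held an ER stress element, the letters CCAAT and CCACG with 9 bases between them, searched on both strands. In RefSeq windows of GRCm38.p6, from 250 bases before to 50 bases after the start of each gene, 37 of 27025 genes held it (0.137%), and 10 of the 34 ER folding genes with a window did (29.4%). Of the 53 genes called lower with a window it was in 1, and of the 8469 tested genes with a window in 14 (0.165%). The Derl3 window is chr10:75893148-75893447 on the plus strand, and the capitals mark the element, which lies on the minus strand and begins 156 bases before the start.
Derl3: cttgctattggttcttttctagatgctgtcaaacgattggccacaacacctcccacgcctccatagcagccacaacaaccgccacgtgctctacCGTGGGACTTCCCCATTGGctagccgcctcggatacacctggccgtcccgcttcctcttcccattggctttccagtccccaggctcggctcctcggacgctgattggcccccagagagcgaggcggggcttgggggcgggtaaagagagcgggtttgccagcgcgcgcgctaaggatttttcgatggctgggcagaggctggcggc
Hspa5, Canx and Ero1b were among the other ER folding genes with the element, and their differences ranged from -0.08 to -2.41. They do not stand for all 10 ER folding genes with the element. The E-box CATATG, to which Mist1 binds, was in 1212 of 27025 windows (4.48%), and in 173 of the 8469 tested genes with a window (2.04%). It was in 0 of the 53 windows of genes called lower and in 0 of the 18 of genes called higher. No match says only that these letters are not in these windows.

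Of 38 genes of ER to Golgi vesicles and cargo receptors, 3 fell, 0 rose and 35 did not pass (median -0.38, or -0.22 without chief replicate 1). That median was 0.00 after centring, against 0.42 over all tested genes, and -0.37 after quantile normalization, against 0.09. Tmed6 was at 14.46, 13.48 and 13.67 in chief samples and 9.91, 9.47 and 10.42 in isthmus samples, 15.3-fold lower (log2 difference -3.94 ± 0.30 SE, adjusted p = 0.000192). Its relative Tmed3 fell 3.68-fold (adjusted p = 0.011), whereas Tmed10, another member of the family, differed by -0.41 (adjusted p = 0.578). Copz2, a subunit of the COPI coat, was at 11.39, 9.82 and 10.95 against 6.30, 7.22 and 5.21, at least 17.2-fold lower (adjusted p = 0.0105), while its paralog Copz1 differed by -0.17 (adjusted p = 0.816). The calls of Tmed3 and Copz2 ended without chief replicate 1 (adjusted p = 0.0698 and 0.081), and that of Tmed3 with the mean of all probe sets (0.08). Of 15 tested genes of granules and Mist1 targets, Copz2, which is on both lists, fell, 0 rose and 14 did not pass, with 5 lower and 0 higher by unadjusted p under 0.05. The median of that list was -0.48, or -0.11 after centring and -0.19 without chief replicate 1. Rab3d, Rab27b and Vamp8, which act at secretory granules, differed by -0.42, 0.20 and 0.09 (adjusted p = 0.464, 0.557 and 0.788).

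Several other genes fell, some of them on none of those pathway lists. Furin, a protease that cleaves proproteins in the Golgi, was at 14.09, 13.61 and 13.62 in chief and 9.71, 10.56 and 9.62 in isthmus samples, 14-fold lower (log2 difference -3.81 ± 0.27 SE, adjusted p = 0.000182). Tent5c was at 12.76, 12.07 and 12.23 against 9.13, 9.18 and 8.99, 9.54-fold lower (adjusted p = 0.000354). Mug1, a secreted protease inhibitor of the alpha-2-macroglobulin family, was at 11.76, 9.73 and 9.04 against 2.02, 2.94 and 1.58, at least 16.3-fold lower (adjusted p = 0.00598). Probe sets for Mug1 may share sequence with its close relatives. The Mug1 call ended without chief replicate 1 (adjusted p = 0.104). Aldh1l2, a mitochondrial enzyme of folate metabolism, was at 9.65, 9.42 and 9.61 against 4.69, 0.00 and 2.53 (at least 10.6-fold, adjusted p = 0.024). That call was lost without any 1 of the chief arrays (adjusted p of up to 0.153). Ttr, the secreted carrier transthyretin, fell 4.64-fold and Anpep, an aminopeptidase of the cell surface, 5.76-fold (adjusted p = 0.000334 and 0.000354), and 3 other bright probe sets of Ttr differed by -2.61, -2.30 and -2.46.

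Among regulators of growth, the secreted antagonist Sostdc1 and the cell cycle inhibitor Cdkn1c had the largest falls. Sostdc1, an antagonist of BMP and Wnt ligands, was at 12.28, 11.14 and 12.35 in chief samples and 4.01, 5.32 and 2.79 in the isthmus samples. It fell at least 54.6-fold (log2 difference -7.88 ± 0.73 SE, adjusted p = 0.000354), and another bright probe set differed by -5.61. It was the 1 called gene among 22 tested of the Wnt list (median -0.20, and -0.41 to -0.04 with an array left out) and among 25 tested of the BMP and TGF-beta list (median 0.04, and -0.07 to 0.17). Ligand and target genes on those lists were not called: Ccnd1, a cyclin and Wnt target, was at 9.14, 10.34 and 9.57 against 11.06, 11.43 and 11.10 (1.51, adjusted p = 0.0823), and Smoc2, a secreted matrix protein, at 8.23, 7.96 and 7.98 against 2.62, 4.48 and 4.78 (adjusted p = 0.0962). Cdkn1c, the imprinted inhibitor p57, was at 11.93, 8.85 and 10.93 against 3.95, 3.82 and 6.88, at least 18.8-fold lower (adjusted p = 0.0228). That call ended without chief replicate 1 or 3 or isthmus replicate 1 or 2 (adjusted p of up to 0.143), and with all 9 arrays in one fit (0.0918). Of the 13 imprinted genes tested of 24 with a probe set, all were lower by value and Cdkn1c alone was called (median -0.69, or -0.31 after centring, with 4 then higher). Among all tested genes 52.9% were higher by value before centring. Igf2, the fetal growth factor, was at 8.08, 7.26 and 6.74 against 3.47, 4.51 and 2.36 (adjusted p = 0.162).

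Of the 73 lower genes, 16 kept their call without any 1 of the 6 arrays, with adjusted p-values of up to 0.0448. They were Sostdc1, Gper1, Pnliprp2, Tmed6, Furin, Pdia2, Tent5c, Cblif, Tmem64, Anpep, Lgals1, Ttr, Ly6e, Cep85, Clps and Pgc. Sostdc1, Gper1, Tmed6, Furin and Tent5c were also called under all 18 alternatives that were run. Without chief replicate 1, 18 genes were called lower, all of them among the 73. Without isthmus replicate 1, 32 were, 31 of them among the 73.

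Interferon response genes lay higher in the isthmus samples. Interferons signal through receptor-bound Janus kinases and STAT proteins to genes that sense viral RNA, modify proteins or present antigen. Of 56 such genes with a probe set 50 were tested, 2 rose, 0 fell and 48 did not pass, with a median of 1.38 and 47 higher by value, against 52.9% of all tested genes. All isthmus arrays lay above all chief arrays for 25 of the 50, against 11.1% of all genes. The median lay between 1.10 and 1.62 when single arrays were left out. After centring it was 1.76, against 0.42 over all tested genes. Then 13 list genes were called higher, and 110 of all tested genes were. After quantile normalization the median was 1.52, against 0.09, and 1 list gene was called higher.

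Among the sensors of viral RNA, Oas1a, an oligoadenylate synthetase that double-stranded RNA activates, was at 9.93, 10.73 and 9.67 in chief and 12.06, 12.26 and 11.95 in isthmus samples. It rose 3.94-fold (log2 difference 1.98 ± 0.31 SE, adjusted p = 0.0137). Ddx60, an interferon-induced helicase, was at 7.89, 8.58 and 7.63 against 11.10, 11.39 and 9.99, 6.93-fold higher (adjusted p = 0.0228). Tlr3, the receptor for double-stranded RNA in endosomes, was at 9.04, 10.13 and 8.82 against 11.47, 11.47 and 12.13, 5.13-fold higher (adjusted p = 0.0191). The other bright probe set of Tlr3 differed by 2.54 and that of Ddx60 by 1.56, and near-identical paralogs may share the Oas1a probe set. Jak2, a Janus kinase, was at 9.82, 9.53 and 9.92 against 11.35, 11.70 and 11.26 (3.20-fold, adjusted p = 0.024), and Parp14, an ADP-ribosyltransferase, at 5.98, 7.70 and 8.85 against 10.04, 11.72 and 11.06 (at least 9.83-fold, adjusted p = 0.0476). Another bright probe set of Jak2 differed by only 0.07, and that of Parp14 by 1.86.

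Of these 5 called genes Oas1a and Parp14 are on the interferon list, and Ddx60, Tlr3 and Jak2 are not. None of the 5 calls held without each array in turn. Those of Oas1a and Ddx60 ended without chief replicate 1 or isthmus replicate 1 or 2 (adjusted p of up to 0.0799 and 0.125). That of Tlr3 ended without chief replicate 1 or any 1 isthmus array (up to 0.081), and those of Jak2 and Parp14 held only without chief replicate 3 (up to 0.119 and 0.171). With all 9 arrays in one fit neither Oas1a nor Ddx60 was called (adjusted p = 0.21 and 0.325). With the mean of all probe sets Ddx60, Jak2 and Parp14 were not (0.0764, 0.33 and 0.0936), and Parp14 was not after quantile normalization (0.0598). Several uncalled members showed groups well apart. Irf1, a transcription factor, was at 9.25, 9.04 and 9.19 against 10.82, 11.05 and 10.55 (1.65, adjusted p = 0.0523), Trim30a, a ubiquitin ligase, at 6.38, 4.44 and 5.73 against 9.10, 9.41 and 8.79 (3.58, adjusted p = 0.0523), and Usp18, a protease that removes the Isg15 tag, at 7.41, 6.27 and 5.70 against 9.47, 9.34 and 9.16 (2.86, adjusted p = 0.065). Of the 12 genes of the major histocompatibility complex with a probe set 8 were tested, none was called by limma, 0 were higher and 4 lower by unadjusted p under 0.05, and the median was -0.29, or 0.08 after centring. In bulk samples such as these, fewer cells of a type and less RNA per cell cannot be told apart. Of 18 leukocyte genes with a probe set, 0 passed the filter on low signals, and their summed signal was 256 to 1780 in the chief and 276 to 438 in isthmus samples, with Nkg7 at 0 on 3 of the 6 arrays.

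The promoters of Ddx60 and Oas1a are shown because they were the 2 genes called higher that held an interferon-stimulated response element, read as GAAA and GAAA with 2 bases between, on either strand. It was in 1079 of 27025 windows (3.99%) and in 19 of the 41 interferon list genes with a window (46.3%). Of the 18 called higher 2 held it, and of the 8469 tested genes with a window 302 did (3.57%). In the windows chr8:61927837-61928136 on the plus strand for Ddx60 and chr5:120907476-120907775 on the minus strand for Oas1a, capitals mark the matches. They begin 53 and 19 bases before the start of Ddx60, and 20 and 14 bases before that of Oas1a, where they overlap each other.
Ddx60: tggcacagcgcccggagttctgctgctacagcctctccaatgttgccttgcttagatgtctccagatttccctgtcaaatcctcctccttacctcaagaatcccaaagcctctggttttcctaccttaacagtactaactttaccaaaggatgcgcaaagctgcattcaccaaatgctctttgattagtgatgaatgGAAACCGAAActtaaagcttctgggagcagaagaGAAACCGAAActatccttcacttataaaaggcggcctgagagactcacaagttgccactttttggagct
Oas1a: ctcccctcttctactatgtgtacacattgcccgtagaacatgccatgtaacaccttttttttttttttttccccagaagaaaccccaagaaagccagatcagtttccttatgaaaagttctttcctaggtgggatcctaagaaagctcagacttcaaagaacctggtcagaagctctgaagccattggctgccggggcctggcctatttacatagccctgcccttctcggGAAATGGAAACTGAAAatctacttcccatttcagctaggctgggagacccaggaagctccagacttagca
Irgm1, Trim21 and Trim30a also hold these letters, and their differences of 2.45, 2.43 and 3.58 were not called (adjusted p = 0.0693, 0.0604 and 0.0523). They lie above the interferon list median of 1.38, Trim30a being the highest of the list, and do not stand for all 19 list genes with the letters.

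Cell cycle genes lay higher by value, with a single call. Of 58 tested genes of G2/M, the spindle and the kinetochore, 1 rose, 0 fell and 57 did not pass, with a median of 1.22, 57 higher by value and 28 higher by unadjusted p under 0.05. Over all 10368 tested genes 52.9% were higher by value, and 830 were higher by unadjusted p under 0.05. Cdca8, a subunit of the chromosomal passenger complex that guides chromosome attachment, was at 10.47, 11.46 and 11.44 in chief and 12.79, 12.28 and 12.52 in isthmus samples, 2.65-fold higher (adjusted p = 0.0454). Of the 6 fits with an array removed, the Cdca8 call held in that without chief replicate 3 alone (highest adjusted p = 0.216), and it ended after quantile normalization (0.0554), with all 9 arrays in one fit (0.243), with the replicate block (0.0584) and with the mean of all probe sets (0.307). Its other bright probe sets differed by 0.93 and 0.37. Ncapg, a condensin subunit, was at 8.04, 7.86 and 8.97 against 10.41, 10.16 and 10.15 (1.95, adjusted p = 0.0693), and Top2a, a topoisomerase of dividing cells, at 9.20, 10.22 and 10.09 against 11.02, 10.64 and 11.19 (1.11, adjusted p = 0.168). For Cdca8 and Top2a, chief replicate 1 was the lowest array.

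That array weighed on the whole group. Deviations from the mean of the 6 arrays had a median over the 58 genes of -1.58 on chief replicate 1, against -0.08 and 0.07 on the other chief arrays and 0.83, 0.27 and 0.68 on the isthmus arrays. Without chief replicate 1 the median difference of the list was 0.60 rather than 1.22. The same array was the highest in chief cell products, with a median deviation of 2.22 against 1.25 and 1.39, and in ER folding genes, with 0.67 against 0.12 and 0.18. Without it the medians of those lists were -2.83 and -0.46. Of the 93 calls 18 held without it, and what sets this array apart was not tested.

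**Figure D2:**
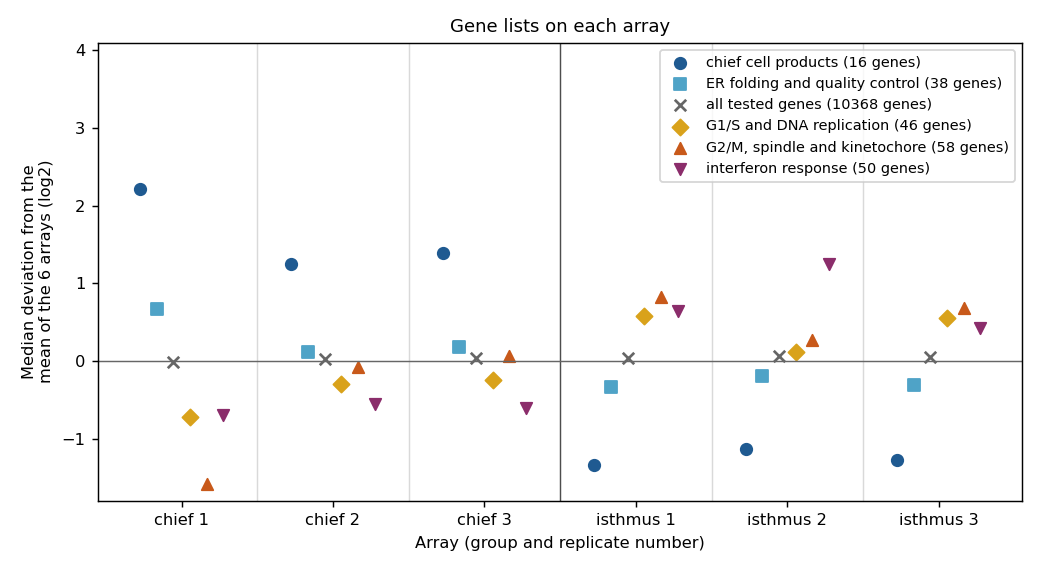
For each of the 6 arrays, the median over a list of each gene's log2 deviation from its own mean over the 6 arrays, for 5 gene lists and all 10368 tested genes (crosses). Chief replicate 1 is highest in chief cell products (2.22) and lowest in G2/M genes (-1.58), and all tested genes stay between -0.01 and 0.06.

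Of 46 tested genes of G1/S and DNA replication limma called 0, with 16 higher and 1 lower by unadjusted p under 0.05. The median was 0.83, and 0.67 without chief replicate 1. Mcm4, a subunit of the replicative helicase, was at 9.18, 10.80 and 10.35 in chief and 11.68, 11.40 and 11.74 in isthmus samples (adjusted p = 0.0986). Ccnd2, a D-type cyclin, ran the other way, at 13.09, 13.08 and 12.90 against 12.34, 12.20 and 12.52 (-0.67, adjusted p = 0.0693). Of 45 nucleolar genes of ribosome biogenesis, limma called 0, with 11 higher and 0 lower by unadjusted p under 0.05, and the median was 0.49. Wdr12, which acts in maturing the large ribosomal subunit, was at 8.20, 8.18 and 8.41 against 9.86, 10.15 and 9.77 (1.66, adjusted p = 0.0945).

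The promoter of Cdca8 is shown for the cell cycle homology region, read as TTTGAA or TTCGAA on either strand, a short motif found before genes that peak late in the cycle. It was in 5854 of 27025 windows (21.7%), in 37 of the 47 G2/M genes with a window (78.7%) and in 8 of the 39 G1/S genes (20.5%). Of the 18 genes called higher 6 held it (33.3%): Cdca8, the chromatin protein Dek, the nuclear envelope receptor Lbr, Aadac, Oas1a and Slc25a25. Of the 53 genes called lower with a window 5 did (9.43%). Of the 8469 tested genes with a window 1376 did (16.2%). The window is chr4:124936868-124937167 on the minus strand, and the capitals mark the match, 13 bases after the start.
Cdca8: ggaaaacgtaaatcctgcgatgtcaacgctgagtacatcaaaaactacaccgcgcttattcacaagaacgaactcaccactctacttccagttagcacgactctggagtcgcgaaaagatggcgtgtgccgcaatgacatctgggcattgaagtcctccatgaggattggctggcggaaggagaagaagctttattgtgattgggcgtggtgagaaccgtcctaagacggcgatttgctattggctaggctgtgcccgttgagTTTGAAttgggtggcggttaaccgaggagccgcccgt
Dek was at 11.21, 11.42 and 11.46 in chief and 12.47, 12.25 and 12.61 in isthmus samples (2.11-fold, adjusted p = 0.0292). Lbr was at 10.69, 10.71 and 10.72 against 12.26, 11.80 and 12.10 (2.54-fold, adjusted p = 0.0228). The groups were tight and well apart for both, and with an array removed both calls held in the fit without chief replicate 3 alone (highest adjusted p = 0.15 and 0.141). Dek was not called with the mean of all probe sets (0.423).

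The other higher calls belonged to no single group. Slc25a25, a mitochondrial carrier for ATP, was at 7.32, 8.02 and 8.43 against 11.18, 9.83 and 10.71 (6.28-fold, adjusted p = 0.0317). Phldb2, a protein of the cell cortex, was at 7.49, 8.73 and 8.88 against 10.92, 10.67 and 10.72 (5.29-fold, adjusted p = 0.0317), and Vcl, the adhesion protein vinculin, at 10.66 to 10.81 against 11.88 to 12.18 (2.47-fold, adjusted p = 0.0228). Other bright probe sets of Slc25a25, Vcl and Dek differed by 2.04, 0.45 and 0.77, and with the mean of all probe sets Slc25a25 and Vcl were not called (adjusted p = 0.204 and 0.185). Without chief replicate 1, and likewise without isthmus replicate 1, limma called 0 genes higher, with 713 and 490 higher by unadjusted p under 0.05, and without isthmus replicate 2 it called 1. In the EGF receptor pathway, which drives growth of the gastric epithelium, 18 genes were tested, limma called 0, 4 were higher and 1 lower by unadjusted p under 0.05, and the median was 0.80. Tgfa, a ligand of that receptor, was at 7.49, 7.74 and 7.02 against 8.47, 8.15 and 9.50 (1.29, adjusted p = 0.319), and Errfi1, an inhibitor of the receptor that its signal induces, at 10.54, 10.43 and 10.52 against 11.42, 11.42 and 11.34 (0.90, adjusted p = 0.118). Lrig1, another inhibitor of the receptor and a stem cell marker, was at 11.72, 12.46 and 11.61 against 11.20, 10.97 and 10.69 (-0.98, adjusted p = 0.125).

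**Figure D3:**
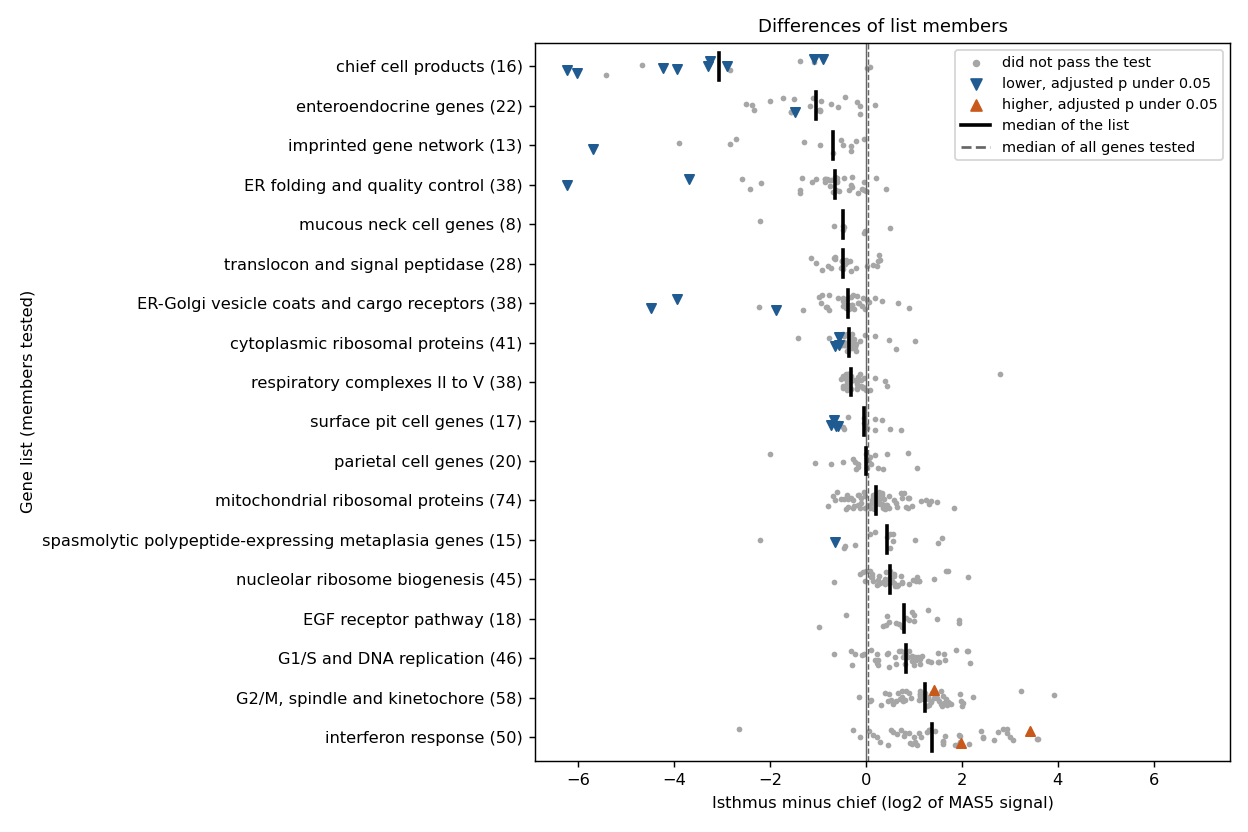
Log2 differences, isthmus minus chief, of the tested members of 18 gene lists, with the number tested in brackets, triangles for called genes and black bars for list medians. Among these lists, chief cell products have the lowest median, -3.07, and interferon response and G2/M genes the highest, 1.38 and 1.22.

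Genes of other corpus cells were bright in both groups. Surface pit cells make gastrokines and the mucin Muc5ac, which was at 13.82, 13.82 and 13.52 in chief and 13.32, 13.62 and 12.88 in isthmus samples (adjusted p = 0.235). Of 17 pit cell genes tested, 4 fell, 0 rose and 13 did not pass, with a median of -0.05 that lay between -0.36 and -0.15 when any 1 array was left out and at 0.32 after centring. The 4 were Psca, Gkn1, Gkn2 and Tff1, with differences of -0.72, -0.66, -0.63 and -0.58. Each lost its call after quantile normalization (adjusted p = 0.146, 0.774, 0.695 and 0.872) and after centring (0.225, 0.24, 0.298 and 0.405), and without chief replicate 1 or isthmus replicate 1 or 2, and Psca and Tff1 also without chief replicate 3 (adjusted p of up to 0.202 over the 4 genes). Cytoplasmic ribosomal proteins were alike: of 41 tested, Rpl38, Rps28 and Rps29 fell, 0 rose, and the list median was -0.35, but 0.07 after quantile normalization and 0.03 after centring, under both of which none of the 3 was called. Respiratory complexes II to V, with 38 tested, 0 called by limma and 20 lower by unadjusted p under 0.05 (828 of all 10368 tested genes were), went from a median of -0.32 to 0.03 and 0.06 under the same scalings. All tested genes had medians of 0.09 and 0.42 under them, so only the quantile medians of both lists lay close to that of all genes.

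The size of a gene's signal bore on such small differences. Of the 33 tested genes with a mean of 14 or more on the log2 scale all 33 were lower in the isthmus samples (median -0.47), and of the 268 between 13 and 14, 84.7% were lower (median -0.26). Genes between 9 and 12 had medians of 0.11 to 0.17. After quantile normalization both bright classes had a median of 0.05. The 19 called genes that differed less than 2-fold were all lower, 2 of them were called after quantile normalization and 0 after centring, whereas of the 74 that differed at least 2-fold, 62 and 60 were. The 33 brightest genes include 15 of the 73 lower calls, Pgc and the gastrokines among them.

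**Figure D4:**
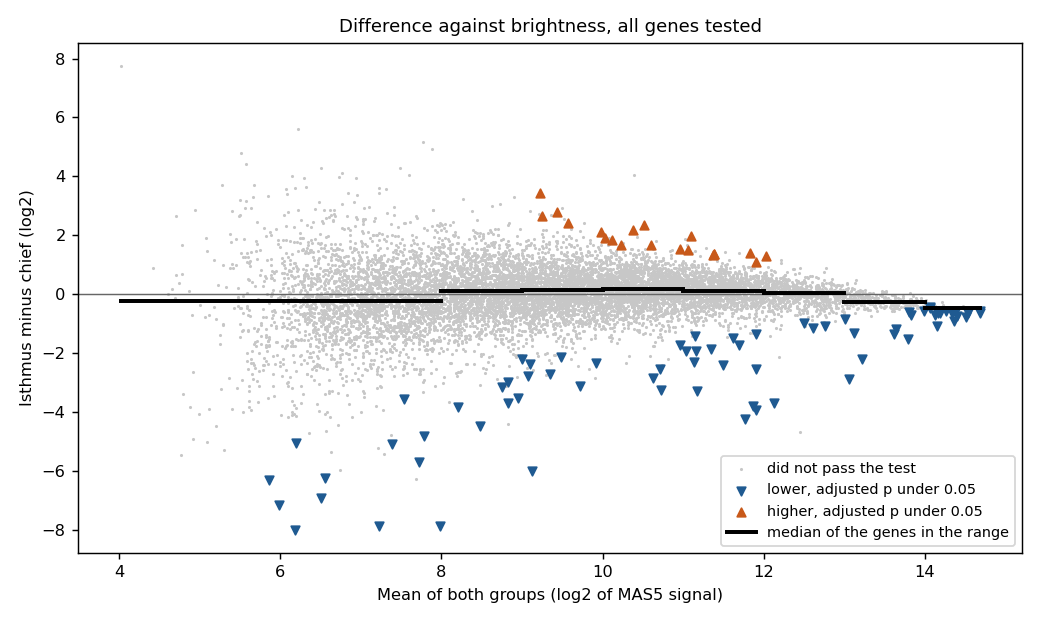
Log2 difference, isthmus minus chief, against the mean log2 signal of both groups for 10368 tested genes, with triangles for called genes and black lines for the median in ranges of the mean. The median falls to -0.26 between 13 and 14 and to -0.47 above 14.

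Parietal cell genes gave no difference that passed. Of 20 tested, limma called 0, with 0 higher and 0 lower by unadjusted p under 0.05, and the median was 0.00, or 0.38 after centring. Atp4a and Atp4b, subunits of the proton pump, were at 13.06, 13.75 and 12.63 against 12.09, 13.21 and 12.66, and at 12.75, 12.58 and 12.55 against 11.97, 12.80 and 12.45 (adjusted p = 0.453 and 0.648). Mucous neck cell genes were not called either: of 8 tested, limma called 0, 3 were lower by unadjusted p under 0.05 and the median was -0.48, or -0.12 after quantile normalization and -0.29 without chief replicate 3. Tff2, the spasmolytic polypeptide, was at 13.91, 13.47 and 14.29 against 13.32, 13.43 and 13.53 (adjusted p = 0.221), and Gkn3, a gastrokine of neck cells, at 12.02, 10.76 and 12.98 against 9.68, 9.13 and 10.33 (-2.21, adjusted p = 0.0693). Of 15 tested genes of spasmolytic polypeptide-expressing metaplasia, a mucous state that chief cells can enter after injury, Clu fell by 0.64 and none rose (median 0.44, with 0 higher and 3 lower by unadjusted p under 0.05). The median was 0.09, 0.25 and 0.49 without chief replicate 1, 2 and 3, and 0.58, 0.12 and 0.29 without isthmus replicate 1, 2 and 3. The Clu call ended after quantile normalization (adjusted p = 0.513), and without chief replicate 1 or isthmus replicate 1 or 2 (up to 0.0799). Cd44, a surface marker of that state, was at 7.45, 5.89 and 10.08 against 9.83, 8.96 and 9.15 (adjusted p = 0.433), and the transcription factor Sox9 at 11.24, 11.54 and 11.83 against 11.17, 11.19 and 11.55 (adjusted p = 0.692).

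Stem and progenitor marker candidates did not move together. Of 21 tested, limma called 0, with 2 higher and 7 lower by unadjusted p under 0.05, and the median was -0.23, or 0.14 after centring and -0.31 to -0.09 with an array left out. Stmn1, a microtubule regulator used as a marker of dividing isthmus cells, was at 11.08, 12.78 and 12.93 in chief and 12.74, 12.65 and 12.85 in isthmus samples (adjusted p = 0.576), with chief replicate 1 again the lowest. Prom1, a membrane glycoprotein of progenitor cells, differed by -0.47 (adjusted p = 0.147).

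Endocrine genes were lower by value. Of 22 tested of 27 with a probe set, 1 fell, 0 rose and 21 did not pass, 21 were lower by value, and the median was -1.05, or -0.67 after centring and -0.70 without isthmus replicate 1. Among all tested genes 52.9% were higher by value. Sst, the hormone somatostatin that restrains acid secretion, was at 12.16, 12.39 and 12.56 in chief and 10.83, 10.71 and 11.10 in isthmus samples, 2.81-fold lower (adjusted p = 0.0111), a call that ended without isthmus replicate 1 (0.0554) and after centring (0.0522). Ghrl, the hormone ghrelin, was at 14.11, 13.81 and 13.81 against 13.17, 13.38 and 13.41 (-0.59, adjusted p = 0.0516). A pair of hormone genes instead followed the replicate number in both groups. Gast, the antral hormone gastrin, was at 3.65 and 3.66 on the arrays numbered 2 and between 11.38 and 14.48 on the other 4, and Gcg, which encodes the glucagon precursor, was at 2.43 and 1.54 on the arrays numbered 1 and between 9.15 and 12.07 on the other 4. Cym, the milk-clotting protease chymosin, was likewise at 2.82 and 1.74 on the arrays numbered 2 and between 7.83 and 12.08 elsewhere.

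Signals of cells outside the epithelium were uneven on the chief arrays. Of 17 fibroblast and matrix genes with a probe set, 13 lay above the array median on chief replicate 3 and 0 to 2 on the other arrays. Col1a1, a collagen chain, was at 13.31 on that array and between 1.81 and 7.97 on the others, and the summed signal of the list was 656 to 34692 in the chief and 277 to 1355 in the isthmus samples. Only Fn1 of that list passed the filter. Hbb-b2, a beta globin, was at 9.84, 9.56 and 14.11 in chief and 0.00, 5.75 and 4.12 in isthmus samples and fell at least 32.4-fold (adjusted p = 0.0332). That call was lost without isthmus replicate 1 or any 1 chief array (up to 0.105). The Hbb-b2 probe set may share sequence with other beta globin genes. The alpha globin Hba-a2 was at 11.59, 11.62 and 12.25 against 11.63, 11.68 and 11.68. Without chief replicate 3 limma called 31 genes higher and 55 lower, and 62 of the 93 calls held. Pancreatic acinar genes, which a sample with exocrine tissue would hold, were mostly dim: 2 of 14 with a probe set were tested. Cpa1, Prss2 and Ctrb1 stayed between 0.65 and 5.48 on all 6 arrays. The 2 tested were brighter and not called by limma. Cela1 was at 9.29, 8.27 and 11.53 in chief and 9.37, 9.74 and 9.79 in isthmus samples (adjusted p = 0.978). Cel was at 8.23, 8.69 and 8.13 against 1.84, 7.56 and 6.91 (adjusted p = 0.307).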

How the data were processed

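The authors deposited log2 signals from Affymetrix Mouse430_2 arrays, processed with MAS5 per the submitters' processing notes. MAS5 had scaled the arrays to one trimmed mean (497 on each of the 6 arrays, with 2% trimmed at each end), so array medians still differed. No further normalization was applied to the deposited values.

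Of 45037 probe sets, 34945 named 1 gene, 932 several and 9160 none in the platform annotation, and those naming 1 gene were used. Where a gene had several, the one with the highest 6-array mean was kept. Groups were taken from sample titles and fitted with limma 3.58.1 in R 4.3.3 (lmFit, then eBayes with an intensity trend) on 6 arrays with 4 residual degrees of freedom, and p-values were adjusted over 10368 genes by Benjamini-Hochberg. The script was tested on simulated data. The number of arrays limits the precision: the median standard error of a difference was 0.49.

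The comparison, the gene lists and the naming rule were chosen with earlier results of these data known. The rule names the 15 largest differences in each direction, leaving out unnamed clones such as Gm12888, and requires groups that do not overlap and a brighter group above its array medians. It adds up to 4 called members of a list (or, with none, its brightest members), and fixed markers. Genes it does not name, such as Tent5c, Ttr, Cckar, Clps, Dek, Lbr, Vcl, Irf1 and the hormones that followed the replicate number, were chosen after their values were seen. Promoter windows are from RefSeq, GRCm38.p6, and covered 8469 of the 10368 tested genes. Alternatives changed the arrays fitted, scaling, pseudocount, filter, probe set rule, intensity trend, array weights and replicate block.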

Additional observations from a re-analysis of the deposited data

How the results depend on the processing

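Against 20 genes called higher and 73 lower, all 9 arrays in one fit gave 43 and 139, and the same genes with the spread of 9 arrays, an alternative chosen after seeing the data, gave 43 and 142. Arrays centred on their median gave 110 and 42, a pseudocount of 64 gave 34 higher, and no filter gave 6 and 48. No intensity trend gave 2 and 10 (710 and 666 at an unadjusted p under 0.05 by limma). Those held 0 of the 20 higher and 8 of the 73 lower calls. Leaving out 1 array gave 0 to 31 higher and 18 to 112 lower. Of the 93 called genes 87 kept their direction under all alternatives run. The 6 that did not were Rps28 (0.02), Rps29 (0.05), Gsto1 (0.07) and ND5 (0.02) after quantile normalization, and Pla2g1b (0.12) and Tuba4a (0.26) with the mean of all probe sets. The cause was not tested. A replicate block gave 21 and 80, with 79 of the 93 calls kept. Same-numbered arrays deviated together only weakly (r = 0.03, 0.04 and 0.08), but each correlated best with its own number, and Gast, Gcg and Cym followed the number. The main fit did not treat the numbers as pairs, and whether they mark a shared preparation was not tested. Signals near the array median limit the dim genes, for which folds are bounds.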
